A study of Mus musculus with 24 samples.

Results

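This report compares myotubes made from *mdx* mice with myotubes made from WT mice after 2 days of differentiation in culture, gene by gene, in 3 *mdx* and 3 WT bulk RNA-seq libraries. These 6 libraries are all those whose titles name 2-day myotubes, out of 24 in the series, and the remaining 18 libraries hold freshly isolated muscle stem cells (FiMuSCs), muscle stem cells activated by cardiotoxin injury (AMuSCs) and cultured myoblasts of both genotypes. The *mdx* samples carry the label mdx.Pax7-nGFP and the WT samples Pax7-nGFP, so every donor of both groups carried the nuclear GFP reporter of PAX7+ cells. The study's methods name C57BL/10ScSn-Dmd mdx/J and C57BL/10ScSnJ as the parent strains, crossed with reporter mice and matched for age and sex, and the age of the donors of these cultures is not given in the labels used here. Primary myoblasts had been taken from hindlimb muscle by magnetic sorting for α7-integrin after removal of cells with CD31, CD11b, CD45 or SCA1. They were grown on collagen in Ham's F10 with 20% FBS and 5 ng/mL basic FGF, and were then held for 2 days in a Ham's F10 and DMEM mixture with 5% horse serum, which makes myoblasts leave the cell cycle and fuse. The series describes its samples as biological triplicates but does not say which mouse each culture came from, so the p-values below measure the spread between these libraries. In a bulk library, fewer cells of a type and less RNA per cell cannot be told apart.

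Dystrophin is a long cytoskeletal protein that ties actin beneath the muscle membrane to dystroglycan and the sarcoglycans, and through them to laminin outside the fibre. Its full-length form is switched on as myoblasts fuse, so a myotube is the first stage of a culture at which much of it is made. The *mdx* allele is a point mutation in exon 23 that turns a glutamine codon into a stop codon, and muscle of these mice degenerates and regenerates repeatedly with deposition of collagen. A myotube in culture has neither the injured tissue nor the inflammatory cells around it, and in the first days it makes mainly the developmental myosins.

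Exon 23 is shown because it holds the site of the *mdx* allele. It was read from the GRCm38 reference genome at chrX:83803306-83803518 on the plus strand as exon 23 of the longest transcript of *Dmd*, and its 213 bases are a whole number of codons. The capitals mark its 4 in-frame CAA codons, which code for glutamine and become the stop codon TAA by a C-to-T change. The deposited values hold no reads, so the allele itself was not looked at.
Dmd exon 23: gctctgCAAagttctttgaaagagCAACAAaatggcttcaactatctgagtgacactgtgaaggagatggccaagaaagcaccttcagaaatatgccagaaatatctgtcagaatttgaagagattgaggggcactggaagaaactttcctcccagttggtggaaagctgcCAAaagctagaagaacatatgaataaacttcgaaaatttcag

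The libraries held 39600017 to 64429222 expected counts in *mdx* and 37337731 to 44836107 in WT, and pairs of the 6 libraries had Spearman correlations of 0.907 to 0.918 over genes. Myotube genes were abundant in all 6. *Myog*, the regulator that commits myoblasts to differentiation, stood at 997, 501 and 441 TPM (each transcript's share of all transcripts, corrected for length) in *mdx* and at 519, 472 and 487 TPM in WT, and *Acta1*, skeletal α-actin, at 4435, 3977 and 3172 TPM in *mdx* against 4516, 4592 and 4175 TPM in WT. Defining markers of leukocytes, macrophages and Schwann cells were at or near 0, whereas those of endothelial and connective-tissue cells, given below beside the genes they concern, were measurable, as was *Rgs5* of pericytes at 0.865, 2.83 and 2.32 CPM in *mdx* against 4.21, 4.15 and 1.77 CPM in WT. *Ptprc*, the leukocyte antigen CD45, had 0, 2 and 10 counts in *mdx* and 0, 3 and 0 in WT, *Adgre1* of macrophages 0, 1 and 31 against 1, 0 and 0, and *Sox10* of Schwann cells 0, 3 and 4 against 0 in each WT library. The 31 *Adgre1* counts were in *mdx* library 3, whose summed macrophage markers were also the highest at 7.10 TPM (2.00 and 2.37 TPM in the other *mdx* libraries, 2.58 to 3.33 TPM in WT). Library numbers only name a sample, and WT library 3 differed from the others in its Y-linked genes, *Ddx3y* being at 93.8, 84.5 and 19.1 CPM in the WT myotubes and at 71.0, 59.2 and 17.2 CPM in the WT myoblasts of the same numbers.

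The difference between the genotypes was small in number of genes. Of 16084 genes tested by edgeR's quasi-likelihood test, 60 were higher in *mdx* than in WT (0.373%) and 35 lower (0.218%) at an adjusted p under 0.05, 95 in all (0.591%). For each of the 95 all *mdx* libraries lay on one side of all WT libraries, which held for 21.1% of all genes tested, and the median log2 fold change of all genes was 0.01. At an unadjusted p under 0.05, 1204 genes were higher (7.49%) and 976 lower (6.07%). DESeq2 called 384 genes higher (2.36%) and 302 lower (1.85%), and all 95 of the edgeR calls were among them. The count depended on single libraries. It was 235 without *mdx* library 1, 146 without *mdx* library 2 and 33 without *mdx* library 3, and 14, 17 and 22 without WT library 1, 2 or 3, with 14 to 87 of the 95 calls retained, none of opposite sign, and 12 genes, *Dmd* among them, called in every one of those 6 fits.

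Most changes were large and a good part of them lay in unnamed loci. Of the 60 genes that were higher, 50 differed by more than 2-fold, 38 by more than 4-fold and 30 by more than 8-fold, and of the 35 that were lower the counts were 23, 10 and 4. By annotation 58 of the 95 were protein coding, 26 pseudogenes and 11 of other types. Pseudogenes made up 27.4% of the calls and 6.75% of the genes tested. Genes with an established symbol numbered 55, of which 29 were higher and 26 lower, and the 40 predicted loci or pseudogenes were 31 higher and 9 lower.

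**Figure D1:**
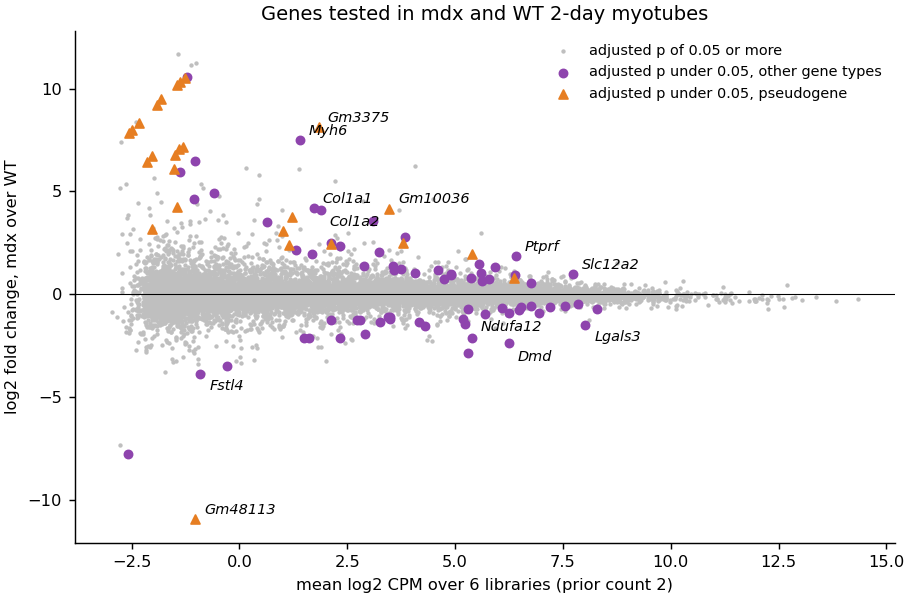
Each point is a gene tested, at its mean log2 CPM over the 6 myotube libraries (x axis) and its log2 fold change, *mdx* over WT (y axis). The 60 genes that were higher in *mdx* and the 35 that were lower are coloured, and the bulk of the other genes lies around 0.

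*Dmd* itself had the smallest adjusted p of the established genes that were lower. The gene spans chrX:82948870-85206141 on the plus strand. It stood at 32.9, 37.3 and 30.0 CPM in *mdx* myotubes and at 163, 168 and 186 CPM in WT myotubes (CPM, its counts as a share of the scaled library). All 3 *mdx* libraries lay far under the lowest WT library, with a log2 fold change of -2.37 (SE 0.105, edgeR adjusted p = 2.17e-04). Fitted with all 24 libraries, which share one estimate of the spread, the value was -2.36 and did not pass (adjusted p = 0.0649). The longest annotated transcript, Dmd-203 of 14910 bases, was at 1.22, 1.03 and 0.952 TPM in *mdx* against 5.33, 5.62 and 5.91 TPM in WT. The shorter Dmd-201 of 4438 bases was at 0.792, 1.29 and 0.916 TPM in *mdx* against 3.83, 4.03 and 3.84 TPM in WT, so both transcripts were low in the same libraries. In the myoblasts, where *Dmd* was low in most libraries, it had 2.36, 29.0 and 5.03 CPM in *mdx* and 5.29, 13.5 and 4.71 CPM in WT, values that overlapped (log2 fold change 0.63, edgeR adjusted p = 0.82).

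The partners of dystrophin held no call. Of 17 genes of the dystrophin-glycoprotein complex tested, *Dmd* alone passed, beside 0.591% of all genes, and the median log2 fold change of the 17 was -0.01. At an unadjusted p under 0.05, 1 was higher and 2 lower, *Dmd* included, beside 7.49% higher and 6.07% lower of all genes. The libraries did not overlap in 23.5% of the 17, beside 21.1% of all genes. *Utrn*, utrophin, the autosomal relative that can take dystrophin's place at the membrane, was at 324, 247 and 205 CPM in *mdx* and at 257, 252 and 254 CPM in WT. The *mdx* libraries lay on both sides of the WT ones (log2 fold change 0.02, edgeR adjusted p = 0.964), and the sign turned to -0.17 without *mdx* library 1. *Sgcd*, δ-sarcoglycan, was at 18.2, 1.77 and 15.8 CPM in *mdx* against 1.60, 2.01 and 7.04 CPM in WT, and *mdx* library 2 lay within the WT range.

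A small group of matrix genes was higher in *mdx* myotubes. Type I collagen is the main fibril of scar and tendon, a triple helix of 2 chains from *Col1a1* and 1 from *Col1a2*. *Col1a1*, on chromosome 11, was at 21.4, 14.4 and 8.31 CPM in *mdx* myotubes against 1.01, 1.06 and 0.379 CPM in WT myotubes. *Col1a2*, on chromosome 6, was at 8.07, 15.9 and 23.4 CPM in *mdx* against 1.17, 0.652 and 0.934 CPM in WT. The lowest *mdx* library was well above the highest WT library for both chains, although the *mdx* library that was highest for one chain was lowest for the other. The log2 fold changes were 4.17 (SE 0.5, edgeR adjusted p = 0.0262) and 4.10 (SE 0.447, edgeR adjusted p = 0.0171), and both calls were lost without any one of the WT libraries. With a length offset the *Col1a1* value was 3.44 and its call was lost (adjusted p = 0.359).

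*Loxl2*, an enzyme of the lysyl oxidase family that cross-links collagen, was at 5.62, 4.84 and 4.93 CPM in *mdx* and at 0.778, 1.22 and 1.51 CPM in WT (log2 fold change 2.13, edgeR adjusted p = 0.0322). *Fbn1*, fibrillin 1 of the microfibrils that bind latent TGFβ, was at 43.3, 37.2 and 46.5 CPM in *mdx* against 18.4, 24.9 and 21.1 CPM in WT (0.98, edgeR adjusted p = 0.0383). *Igfbp7*, a secreted binding protein of the insulin-like growth factors, was at 48.4, 38.6 and 37.7 CPM in *mdx* against 19.7, 24.4 and 20.8 CPM in WT (0.94, edgeR adjusted p = 0.0383). The *mdx* libraries lay clear of the WT ones in these 3 genes, as in every gene called. All 3 calls were lost with a length offset, and also without any single WT library. *Islr*, a secreted protein of mesenchymal cells, was at 70.6, 69.9 and 97.7 CPM in *mdx* against 29.1, 31.1 and 25.4 CPM in WT (1.48, edgeR adjusted p = 0.0128). One matrix-associated gene went the other way: *Mxra8*, a membrane protein with immunoglobulin domains, fell to 55.8, 57.9 and 49.0 CPM in *mdx*, against 89.6, 82.1 and 85.2 CPM in WT (-0.66, edgeR adjusted p = 0.0307).

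The matrix lists as a whole held few calls. Of 23 collagen chain genes tested, 2 were higher and none lower, 9 were higher and 1 lower at an unadjusted p under 0.05 (DESeq2 called 7 and 0), and 39.1% had libraries that did not overlap, beside 21.1% of all genes. Their median log2 fold change was 0.39, beside 0.01 for all genes. At an unadjusted p under 0.05, 7.49% of all genes were higher and 6.07% lower (DESeq2 called 2.36% and 1.85%). Of 20 genes of collagen processing and cross-linking, 1 was higher, and of 33 matrix glycoproteins 2 were higher, beside 0.373% of all genes, with medians of 0.31 and 0.20. *Postn*, periostin, was at 11.0, 15.4 and 28.7 CPM in *mdx* against 2.10, 3.07 and 4.77 CPM in WT, and *Tnc*, tenascin C, at 104, 77.2 and 148 CPM against 33.3, 44.5 and 52.0 CPM. Neither overlapped between the genotypes and neither passed (log2 fold changes 2.47 and 1.34, edgeR adjusted p = 0.0916 and 0.113). *Col3a1*, the fibrillar chain most abundant beside type I in soft tissue, was at 171, 217 and 211 CPM in *mdx* against 117, 149 and 91.4 CPM in WT (0.75, edgeR adjusted p = 0.182).

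Markers of fibro-adipogenic progenitors, the connective-tissue cells of muscle that make collagen, were present in both genotypes. Their list summed to 116, 133 and 138 TPM in *mdx* myotubes and to 112, 123 and 86.1 TPM in WT myotubes, and overlapped, although the cultures had been depleted of cells with SCA1, which these cells carry. Of 8 of its genes tested none passed in edgeR, 3 were higher and none lower at an unadjusted p under 0.05 (DESeq2 called 2 and 0), 37.5% did not overlap, and the median log2 fold change was 0.86. Over all genes 7.49% were higher and 6.07% lower at that threshold (DESeq2 called 2.36% and 1.85%). The share of all genes that did not overlap was 21.1%, and their median was 0.01. *Pdgfra*, the defining receptor of this list, was at 1.44, 1.01 and 1.35 CPM in *mdx* and at 0.320, 0.597 and 0.177 CPM in WT, higher in all 3 *mdx* libraries. Tenocyte markers summed to 135, 87.3 and 121 TPM in *mdx* against 91.2, 103 and 90.6 TPM in WT and overlapped in that sum. The mean log2 CPM of the list, however, was 2.82 to 3.27 in *mdx* and 2.33 to 2.61 in WT. Of its 5 genes tested 80% did not overlap, beside 21.1% of all genes, and the median log2 fold change was 1.01. None of the 5 passed in edgeR, 2 were higher at an unadjusted p under 0.05 and DESeq2 called 1. The part of such cells in the collagen values was not tested.

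**Figure D2:**
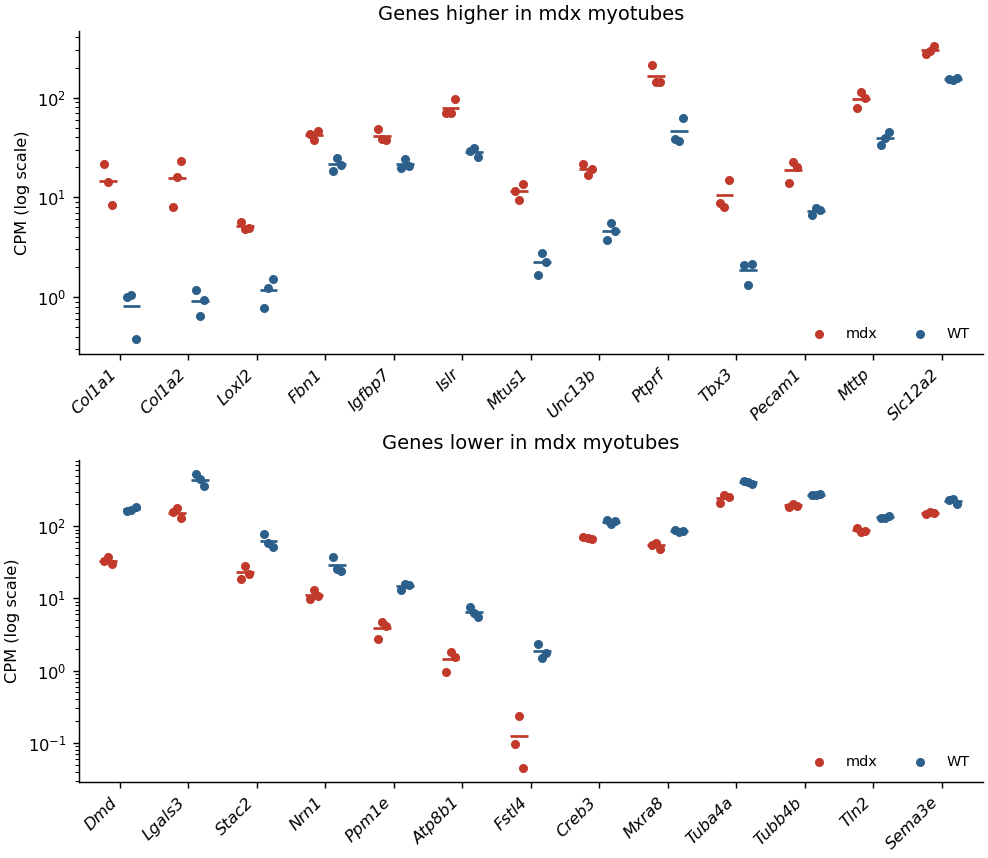
CPM of named genes (y axis, log scale) in the 6 libraries, one point a library, with lines at the mean of each genotype and *mdx* left of WT for each gene. *Dmd* and *Lgals3* lie lower in *mdx* myotubes, and *Col1a1*, *Col1a2* and the other increases lie higher, with no overlap between the genotypes in these genes.

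Among the myosins, 1 gene passed the test, *Myh6*, and its neighbour *Myh7* had the same order of *mdx* libraries without passing. *Myh6* encodes the α-cardiac myosin heavy chain and *Myh7* the β-cardiac chain, which is also the motor of slow skeletal fibres, and they lie side by side on chromosome 14. *Myh6*, at chr14:54941921-54966927 on the minus strand, was at 46.8, 8.90 and 58.4 CPM in *mdx* myotubes against 0.160, 0.353 and 0.126 CPM in WT myotubes. The lowest *mdx* library, number 2, was still far above every WT library (log2 fold change 7.49, SE 0.926, edgeR adjusted p = 0.031). The call was kept without *mdx* library 2 and lost without any of the other 5, and also without a filter on low counts (adjusted p = 0.161). *Myh7* was at 198, 34.8 and 252 CPM in *mdx* against 12.8, 29.6 and 19.4 CPM in WT, and did not pass (2.98, edgeR adjusted p = 0.185), with *mdx* library 2 close to the WT libraries.

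The counts of both genes went up and down together across the *mdx* libraries. For every 100 *Myh7* reads there were 23.6, 25.6 and 23.2 *Myh6* reads in *mdx* and 1.25, 1.19 and 0.650 in WT, so the ratio was nearly constant in *mdx*, while in WT it rested on 7, 13 and 5 *Myh6* counts. The transcripts of the pair align over 5772 bases with 437 differing bases and 25 gap positions, an identity of 92.4%. Whether part of the *Myh6* estimate came from reads of *Myh7* was not tested. The following stretch of 100 bases near the 5′ end of the coding sequence (Myh7 at chr14:54992769-54992868, Myh6 at chr14:54965356-54965455, both minus strand, GRCm38) is shown because it is a place where reads can be told apart, and the capitals mark its 25 differing bases.
Myh6: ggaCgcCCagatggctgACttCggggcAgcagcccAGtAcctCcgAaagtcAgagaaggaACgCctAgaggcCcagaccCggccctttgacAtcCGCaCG
Myh7: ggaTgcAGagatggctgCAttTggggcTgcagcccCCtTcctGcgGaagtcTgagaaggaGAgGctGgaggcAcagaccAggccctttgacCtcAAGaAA

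The promoters of the pair are given because they lie next to each other and both genes were high in the same *mdx* libraries. Each run holds 250 bases before and 50 after a RefSeq transcript start (GRCm38.p6, minus strand, Myh6 at chr14:54966558-54966857, Myh7 at chr14:54994577-54994876), and *Myh7* has a further annotated start that is not shown. Capitals mark the TATA box, TATAAA, and the MCAT motif, CATTCC on either strand, a sequence bound by TEAD factors in muscle genes. Both windows shown held 1 MCAT motif, which 14.7% of 32851 promoters held and the window of the other *Myh7* start did not, and only that of *Myh6* held TATAAA, which 13.6% held. The E-box CANNTG of the myogenic regulators occurred once in the *Myh6* window and 2 times in the *Myh7* window, and in 72.3% of all promoters.
Myh6 promoter: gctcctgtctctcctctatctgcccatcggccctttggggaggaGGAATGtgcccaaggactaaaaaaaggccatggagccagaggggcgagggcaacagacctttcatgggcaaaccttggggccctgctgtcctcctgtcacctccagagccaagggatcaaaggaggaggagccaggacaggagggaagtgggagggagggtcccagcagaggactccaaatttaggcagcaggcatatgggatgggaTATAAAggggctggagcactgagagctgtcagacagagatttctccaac
Myh7 promoter: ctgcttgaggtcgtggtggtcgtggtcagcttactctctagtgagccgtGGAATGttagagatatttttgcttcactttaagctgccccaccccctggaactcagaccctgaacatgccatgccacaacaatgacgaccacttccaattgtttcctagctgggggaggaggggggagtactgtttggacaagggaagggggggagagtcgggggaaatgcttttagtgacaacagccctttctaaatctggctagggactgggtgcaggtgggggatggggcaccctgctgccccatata

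The fast and developmental myosins did not pass the edgeR test. *Myh4*, the fastest adult chain, was at 74.3, 221 and 287 CPM in *mdx* against 615, 319 and 459 CPM in WT (log2 fold change -1.26), and *Myh1*, the 2X chain, at 4054, 6121 and 5397 CPM against 8336, 6370 and 9271 CPM (-0.62). All 3 *mdx* libraries lay under the WT ones for both. The embryonic chain *Myh3* and the perinatal chain *Myh8* had log2 fold changes of -0.32 and -0.43. *Myl2*, the regulatory light chain of slow and ventricular muscle, was at 2.02, 0.259 and 1.49 CPM in *mdx* against 0.229, 0.353 and 0.0757 CPM in WT, with *mdx* library 2 again among the WT values. Of 14 myosin heavy and light chain genes tested 1 passed in edgeR, *Myh6*, beside 0.591% of all genes. At an unadjusted p under 0.05, 3 were higher and 5 lower, beside 7.49% higher and 6.07% lower of all genes. DESeq2 called 3 higher and 3 lower, *Myh1* and *Myh3* among the lower ones, beside 2.36% and 1.85% of all genes. The libraries did not overlap in 57.1%, 2 genes higher and 6 lower, beside 21.1% of all genes.

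**Figure D3:**
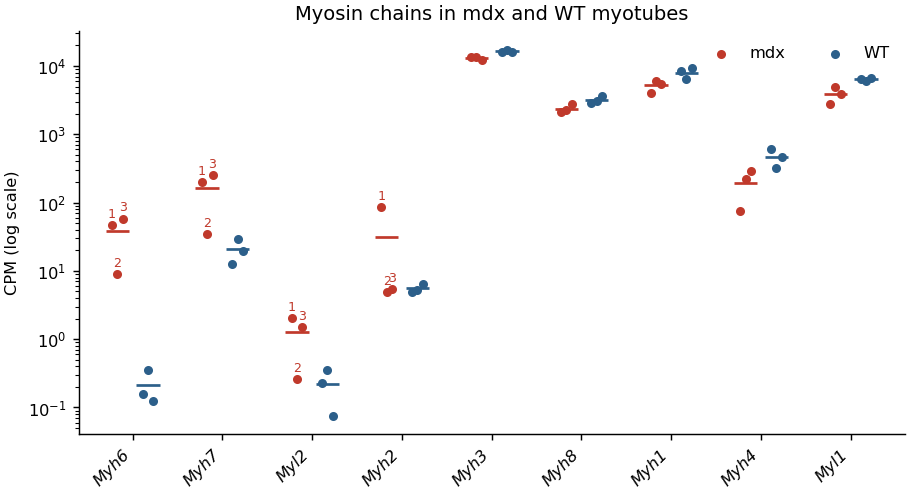
CPM of myosin genes (y axis, log scale), one point a library with lines at the mean of each genotype, *mdx* left of WT and digits marking the *mdx* libraries. *Myh6* and *Myh7* are high in *mdx* libraries 1 and 3 and lower in *mdx* library 2, while *Myh1* and *Myh4* lie under the WT libraries.

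The lists of structural and excitation genes of the myotube held no call. Of 40 sarcomere genes tested none passed in edgeR, 13 were lower and 1 higher at an unadjusted p under 0.05, beside 6.07% lower and 7.49% higher of all genes (DESeq2 called 3 and 1), and the median log2 fold change was -0.22, beside 0.01 for all genes. The mean log2 CPM of the list was 8.26 to 8.60 in *mdx* and 8.67 to 8.78 in WT. Of 30 genes of excitation-contraction coupling none passed in edgeR and 10 were lower at an unadjusted p under 0.05, beside the same 6.07% (DESeq2 called 4), with a median of -0.21 and list levels of 7.09 to 7.44 in *mdx* against 7.51 to 7.68 in WT. Of all genes, DESeq2 called 2.36% higher and 1.85% lower. *Mdx* library 1 was the lowest for both lists. The summed level of the myotube markers was 91620 to 96940 TPM in *mdx* and 108500 to 114500 TPM in WT, without overlap, and its part in the values of single genes was not tested. The troponin list was at 8.82 to 9.46 in *mdx* and 9.21 to 9.29 in WT on the mean log2 CPM scale and overlapped, with none of its 8 genes called by edgeR or DESeq2 and none at an unadjusted p under 0.05.

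*Chrng*, the γ subunit of the fetal acetylcholine receptor, was at 434, 783 and 573 CPM in *mdx* against 985, 984 and 939 CPM in WT (log2 fold change -0.70). *Casq2*, the calsequestrin of slow and cardiac muscle, had a log2 fold change of -0.52. Neither passed, although *Chrng* did not overlap between the genotypes. Of 22 myogenic regulators tested none passed in edgeR, 3 were higher and 3 lower at an unadjusted p under 0.05 (DESeq2 called 3 and 1), and the median was 0.16. Of 22 fusion and adhesion genes none passed in edgeR, 5 were higher at an unadjusted p under 0.05 (DESeq2 called 2), and the median was 0.17. Beside both lists, 7.49% of all genes were higher and 6.07% lower at that threshold, and DESeq2 called 2.36% and 1.85%.

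Genes outside the contractile apparatus carried most of the named decreases. *Lgals3*, galectin 3, a sugar-binding protein that is secreted and also acts in membrane repair, was at 155, 178 and 131 CPM in *mdx* myotubes against 524, 444 and 357 CPM in WT myotubes. The highest *mdx* library had fewer than the lowest WT library by a wide margin (log2 fold change -1.51, SE 0.169, edgeR adjusted p = 0.0171). *Stac2*, an adaptor of the L-type calcium channel, was at 18.6, 28.6 and 21.8 CPM in *mdx* against 78.4, 58.9 and 51.1 CPM in WT (-1.45, edgeR adjusted p = 0.0453). *Nrn1*, neuritin, a membrane-anchored protein known from neurite growth, was at 9.80, 12.9 and 10.9 CPM in *mdx* against 38.1, 25.5 and 23.7 CPM in WT (-1.38, edgeR adjusted p = 0.0453). For both, all WT libraries lay above all *mdx* libraries. With 1 library left out, however, the *Stac2* call was kept in 1 fit and the *Nrn1* call in 0. Both were also lost with a length offset (edgeR adjusted p = 0.179 and 0.0625).

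*Ppm1e*, a protein phosphatase that acts on kinases of the AMPK and PAK families, was at 2.71, 4.69 and 4.16 CPM in *mdx* against 12.9, 15.8 and 15.3 CPM in WT (log2 fold change -1.93, edgeR adjusted p = 0.0179). *Atp8b1*, a flippase that moves phospholipids across the plasma membrane, was at 0.961, 1.81 and 1.56 CPM in *mdx* against 7.6, 6.3 and 5.55 CPM in WT (-2.16, edgeR adjusted p = 0.0306). Both were low genes with clear gaps between the genotypes. *Tuba4a* and *Tubb4b*, an α- and a β-tubulin, were at 207, 271 and 254 CPM against 427, 412 and 385 CPM and at 187, 204 and 193 CPM against 270, 275 and 277 CPM, *mdx* against WT (-0.74 and -0.49, edgeR adjusted p = 0.0476 and 0.036). *Dctn3*, a subunit of the dynein partner dynactin, had a log2 fold change of -0.74.

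*Tln2*, talin 2, which couples integrins to actin at the costameres and myotendinous ends of muscle, was at 93.0, 82.1 and 87.2 CPM in *mdx* against 129, 131 and 137 CPM in WT (log2 fold change -0.60, edgeR adjusted p = 0.0267). *Sema3e*, a secreted guidance signal, was at 148, 158 and 155 CPM in *mdx* against 234, 239 and 205 CPM in WT (-0.56, edgeR adjusted p = 0.0456). Both differences were small, and the libraries of a genotype lay close together. *Pcdhga11*, a clustered protocadherin, was at 0.264, 0.259 and 0.167 CPM in *mdx* against 2.7, 3.31 and 1.69 CPM in WT (-3.48, edgeR adjusted p = 0.0179), and *Fstl4*, a follistatin-like protein, at 0.0961, 0.237 and 0.0455 CPM against 2.33, 1.49 and 1.77 CPM (-3.90, edgeR adjusted p = 0.0492), so both were scarce in *mdx*. Other named genes that were lower were the deubiquitinase *Cyld* (-0.61), the complement inhibitor *Cd59a* (-1.14), the lipid hydrolase *Pafah2* (-1.21, and -0.70 with an adjusted p of 0.36 under a length offset) and the membrane-bound transcription factor *Creb3* (-0.76).

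Among the named increases were genes of vesicles, transport and signalling. *Ptprf*, the receptor tyrosine phosphatase LAR, was at 210, 143 and 143 CPM in *mdx* myotubes against 38.7, 36.4 and 62.3 CPM in WT myotubes (log2 fold change 1.85, edgeR adjusted p = 0.0416), a call that was lost without a filter on low counts (adjusted p = 0.112). *Unc13b*, a Munc13 protein that primes vesicles for fusion, was at 21.7, 16.6 and 19.3 CPM in *mdx* against 3.77, 5.59 and 4.57 CPM in WT (2.04, edgeR adjusted p = 0.00749). *Mtus1*, a microtubule-associated protein, was at 11.6, 9.37 and 13.5 CPM in *mdx* against 1.67, 2.80 and 2.27 CPM in WT (2.36, edgeR adjusted p = 0.0127, and 2.23 with an adjusted p of 0.247 under a length offset). In each the lowest *mdx* library was well above the highest WT library. *Tbx3*, a T-box repressor of limb and heart development, was at 8.79, 7.97 and 15.1 CPM in *mdx* against 2.10, 1.33 and 2.17 CPM in WT (2.50, edgeR adjusted p = 0.0291).

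*Slc12a2*, the sodium, potassium and chloride cotransporter NKCC1, was at 273, 292 and 329 CPM in *mdx* against 154, 151 and 157 CPM in WT (log2 fold change 0.96, edgeR adjusted p = 0.0076). *Kifc3*, a kinesin that walks to microtubule minus ends, was at 114, 116 and 118 CPM in *mdx* against 58.3, 56.3 and 66.3 CPM in WT (0.94, edgeR adjusted p = 0.00713). Both had little spread within a genotype. *Mttp*, which loads lipid onto lipoproteins, was at 78.9, 114 and 98.6 CPM in *mdx* against 33.3, 39.1 and 44.8 CPM in WT (1.32, edgeR adjusted p = 0.0267). *Smarca2*, an ATPase of the SWI/SNF chromatin remodellers, was at 26.3, 19.3 and 25.3 CPM in *mdx* against 11.6, 10.9 and 13 CPM in WT (1.00, edgeR adjusted p = 0.0422).

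*Pecam1*, the adhesion protein CD31 against which cells had been depleted, was at 13.9, 22.8 and 20.2 CPM in *mdx* against 6.70, 7.85 and 7.45 CPM in WT (log2 fold change 1.37, edgeR adjusted p = 0.0383). The other endothelial marker *Cdh5*, VE-cadherin, was at 0.360, 0.216 and 0.440 CPM in *mdx* and at 0.252, 0.190 and 0.151 CPM in WT, near 0 in all 6 libraries. The endothelial list summed to 8.11, 15.8 and 9.49 TPM in *mdx* and 12.9, 14.9 and 16.2 TPM in WT, so it was not higher in *mdx*. Smaller increases were found for the relaxin receptor *Rxfp1* (1.37), the cGMP-dependent kinase *Prkg1* (0.63) and *Btg1*, a brake on proliferation (0.71).

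Several regulators of growth and fibre type stood at distinct levels without passing. *Mstn*, myostatin, which limits muscle mass, was at 22.6, 78.7 and 15.2 CPM in *mdx* against 150, 96.2 and 126 CPM in WT (log2 fold change -1.67, edgeR adjusted p = 0.319). *Six2*, a homeobox factor, was at 1.25, 4.88 and 1.72 CPM in *mdx* against 12, 13.8 and 14.7 CPM in WT (-2.37, edgeR adjusted p = 0.13), and *Id1*, a BMP target that blocks bHLH factors, at 13.5, 28.5 and 14.5 CPM against 63.4, 40.3 and 33.0 CPM (-1.28, edgeR adjusted p = 0.235). In these 3 genes *mdx* library 2 was the closest to WT, and no library of one genotype reached the range of the other. *Pdgfrb*, the PDGF receptor of mural and connective-tissue cells, was at 5.36, 17.9 and 13.8 CPM in *mdx* against 3.13, 2.52 and 3.05 CPM in WT (2.09, edgeR adjusted p = 0.116). Of 27 genes of fatty acid use none passed in edgeR, and 8 were lower at an unadjusted p under 0.05 (DESeq2 called 3). Of 30 genes of the Wnt axis none passed in edgeR, and 10 were higher and 6 lower at that threshold (DESeq2 called 4 and 2). Over all genes 7.49% were higher and 6.07% lower at that threshold, and DESeq2 called 2.36% higher and 1.85% lower.

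Proliferation and interferon genes held no call. Of 32 mitosis genes tested none passed in edgeR, 13 were higher and none lower at an unadjusted p under 0.05, beside 7.49% higher and 6.07% lower of all genes (DESeq2 called 5 and 0), and the median log2 fold change was 1.04. The mean log2 CPM of the list was 1.53, 1.72 and 2.87 in *mdx* and 1.34, 1.64 and 1.07 in WT, so *mdx* library 3 stood apart and *mdx* library 1 lay within the WT range. *Mki67*, the proliferation antigen, was at 6.17, 6.15 and 20.3 CPM in *mdx* against 2.93, 5.48 and 2.25 CPM in WT. Of 23 interferon response genes none passed in edgeR, 12 were higher and 1 lower at that threshold (DESeq2 called 4 and 1), with a median of 0.63 and list levels of 1.47 to 1.99 in *mdx* against 1.24 to 1.39 in WT. Of all genes, DESeq2 called 2.36% higher and 1.85% lower. *Wif1*, a secreted inhibitor of Wnt ligands, had a log2 fold change of 1.46 (edgeR adjusted p = 0.062). Over all 48 lists, 10 of 999 genes tested were called, in 8 lists, beside 0.591% of all genes.

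**Figure D4:**
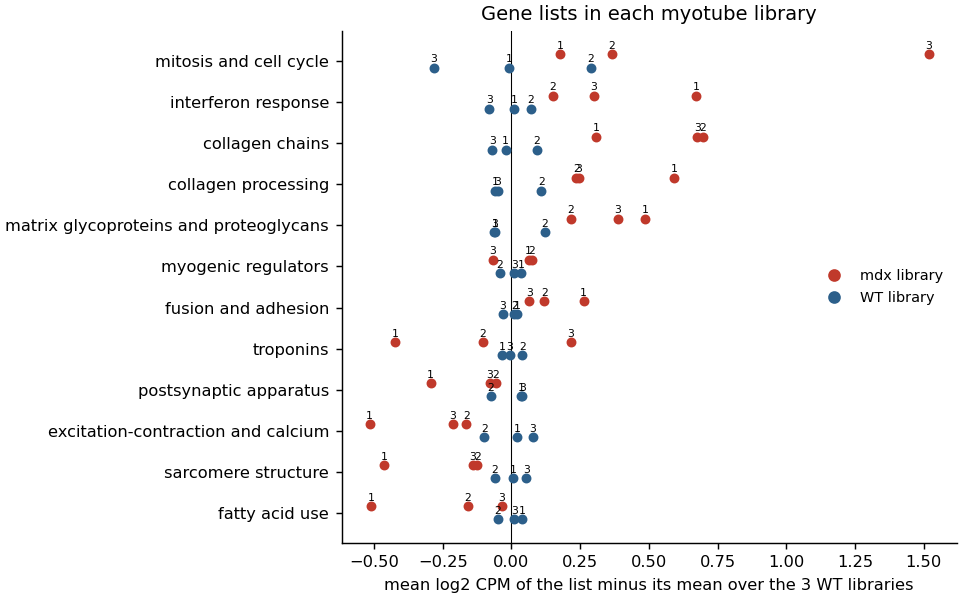
Mean log2 CPM of each gene list in each library (x axis), *mdx* above WT within a list, with the digits marking library numbers. The sarcomere and excitation-contraction lists lie lower in *mdx*, led by library 1, and the mitosis list is highest in *mdx* library 3.

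Several coding genes that were lower in *mdx* had a near-identical copy elsewhere in the genome that was higher. Retrocopies are made when an mRNA is copied back into DNA, and reads from such pairs can be assigned to either. *Ndufa12*, a subunit of respiratory complex I at chr10:94198720-94221443, was at 13.7, 21.5 and 25.2 CPM in *mdx* against 92.2, 85.4 and 90.1 CPM in WT (log2 fold change -2.14, SE 0.211, edgeR adjusted p = 0.0127). Its processed copy *Gm15920*, at chr5:130188395-130188796, was at 70.2, 87.8 and 93.3 CPM in *mdx* against 20.4, 19.5 and 24.6 CPM in WT (1.96, edgeR adjusted p = 0.00402). The copy aligns with 2 differing bases over 402. The copy took 78.7% to 83.6% of the reads of the pair in *mdx* and 18.1% to 21.5% in WT, while their sum, 84.0, 109 and 118 CPM in *mdx* and 113, 105 and 115 CPM in WT, overlapped.

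A stretch of 100 bases that holds one of those 2 differences is shown, *Ndufa12* at chr10:94220738-94220837 in exon 4 and *Gm15920* at chr5:130188673-130188772, both on the plus strand of GRCm38, with the differing base in capitals. Reads that do not cross such a base fit both genes equally.
Gm15920: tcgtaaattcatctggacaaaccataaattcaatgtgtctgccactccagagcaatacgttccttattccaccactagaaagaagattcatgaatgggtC
Ndufa12: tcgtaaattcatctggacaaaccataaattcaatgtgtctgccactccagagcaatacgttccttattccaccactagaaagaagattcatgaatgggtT

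*Psmb5*, a catalytic subunit of the proteasome on chromosome 14, was at 82.9, 95.3 and 93.6 CPM in *mdx* against 170, 163 and 174 CPM in WT (log2 fold change -0.90, edgeR adjusted p = 0.00713). Its copy *Gm3375*, at chr7:3181093-3181888, was at 48.8, 58.0 and 62.9 CPM in *mdx* against 0.160, 0.109 and 0.328 CPM in WT (8.13, edgeR adjusted p = 6.52e-05). The copy was almost silent in the WT estimates and held 37.0% to 40.2% of the reads of the pair in *mdx*, and *mdx* sums of 132, 153 and 156 CPM lay under WT sums of 170, 163 and 174 CPM. The transcripts align over 795 bases with 8 differences and 1 gap position. In the stretch of 100 bases shown (Gm3375 at chr7:3181381-3181480 on the plus strand, Psmb5 at chr14:54616633-54616732 on the minus strand, exon 2) the capitals mark 3 differing bases.
Gm3375: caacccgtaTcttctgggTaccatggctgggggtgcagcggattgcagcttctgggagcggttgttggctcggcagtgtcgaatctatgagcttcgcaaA
Psmb5: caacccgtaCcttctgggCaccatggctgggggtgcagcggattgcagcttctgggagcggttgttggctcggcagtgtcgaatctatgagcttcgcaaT

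*Rpl11*, a protein of the large ribosomal subunit, was at 54.3, 64.0 and 48.1 CPM in *mdx* against 111, 106 and 96.5 CPM in WT (log2 fold change -0.91, edgeR adjusted p = 0.0291). Its copy *Gm10036* on chromosome 18 was at 43.6, 48.5 and 47.9 CPM in *mdx* against 2.10, 2.58 and 3.21 CPM in WT (4.15, edgeR adjusted p = 1.27e-04), and *Gm48909* on chromosome 14 at 10.5, 7.06 and 9.92 CPM against 1.12, 0.679 and 0.202 CPM (3.77, edgeR adjusted p = 0.0427). The 3 genes summed to 108, 120 and 106 CPM in *mdx* and 114, 110 and 99.9 CPM in WT, and overlapped. *Eif3j1*, a translation initiation factor, was at 21.6, 27.7 and 23.6 CPM in *mdx* against 54.8, 58.5 and 52.8 CPM in WT (-1.19, edgeR adjusted p = 0.0076). Its paralogue *Eif3j2* matched 43.8% of the *Eif3j1* transcript at 99.4% identity. *Eif3j2* was at 160, 151 and 149 CPM in *mdx* against 128, 125 and 130 CPM in WT and did not pass (0.26, edgeR adjusted p = 0.181). Together the pair summed to 181, 178 and 173 CPM in *mdx* and 183 CPM in each WT library.

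When each predicted locus or pseudogene was added to the gene it copies, 28 genes were higher in *mdx* (0.19%) and 22 lower (0.149%) of 14765. In that fit the log2 fold changes were -0.09 for *Ndufa12*, -0.20 for *Psmb5* and 0.00016 for *Rpl11* (edgeR adjusted p = 0.775, 0.363 and 0.999), so these 3 calls ended. *Dmd*, *Col1a1* and *Myh6* kept theirs, but that fit could not test them. No near copy was found for *Dmd* and *Col1a1*, and *Myh7*, the only match of *Myh6*, was not added to it. *Eif3j1* also kept its call (log2 fold change -1.19, edgeR adjusted p = 0.0141), and *Eif3j2* was not added to it. Of the 95 calls 63 were tested in that fit and 48 were kept. Other calls lost there included *Stac2*, *Nrn1*, *Fstl4*, *Tuba4a*, *Sema3e*, *Cyld*, *Smarca2* and *Rxfp1*, with adjusted p of 0.0527 to 0.0584, and *Btg1*, with an adjusted p of 0.0707. Their log2 fold changes stayed close to those above. A match of at least 90% identity over at least 20% of the transcript was found for 24 of the 26 pseudogenes called and for 15 of the 58 coding genes called. Among these coding genes was *Loxl2*, which matched *Gm21451* at 100% identity over 44.2% of its transcript. *Pcdhga11* matched *Pcdhga12* at 90.8% over 73.3%, and *Tubb4b* matched *Tubb4b-ps1* at 98.4% over 83.8%. *Tuba4a* and *Cd59a* had shorter matches. The values of all genes with a match are therefore uncertain between copies, and whether the genotypes differed in sequence at these loci was not tested.

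**Figure D5:**
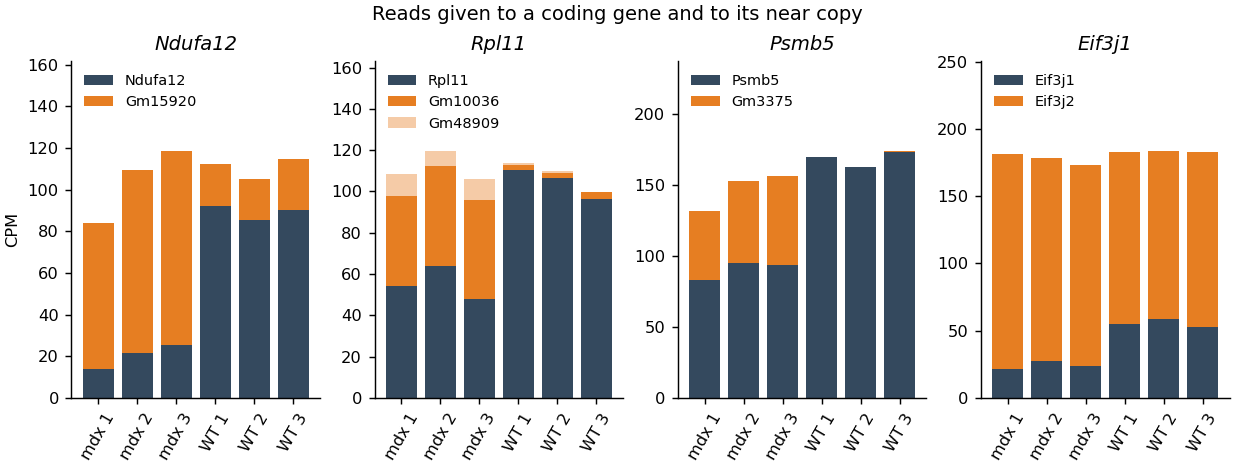
Stacked bars of the CPM (y axis) of a coding gene and its near copies in each of the 6 libraries, *mdx* left of WT, so that the bar height is their sum. The coding gene is lower and the copy higher in *mdx* myotubes, and the sums of *Ndufa12* and *Rpl11* with their copies overlap between the genotypes. For *Eif3j1* the second gene is its paralogue *Eif3j2*, whose increase did not pass the edgeR test.

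Some unnamed loci had a rounded expected count of 0 in every library of a genotype. Of the genes called, 9 had 0 counts in all 3 WT libraries, and against a floor of 3 counts over the group they were at least 26.7-fold to 177-fold higher in *mdx*. The highest bounds were those of *Gm7125* (at least 177-fold) and *Gm12663* (at least 171-fold). In the opposite direction 2 genes had 0 counts in all 3 *mdx* libraries, *Gm48113* (at least 267-fold lower) and *Gm35279* (at least 29.4-fold lower). The floor covers counting error only, not the assignment of reads between copies. *Gm12663* matched *Ublcp1* at 99.4% identity, *Gm7125* matched *Gm10182* at 97.4% and *Gm48113* matched *Gm47924* at 99.9%, while no near copy was found for *Gm35279*. Whether reads of these loci were assigned to their matches was not tested.

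The 95 genes were then looked up in the other states of the same series, each fitted on its own 6 libraries. In myoblasts, from which the myotubes were made, 25 of the 89 genes tested were called in the same direction (28.1%, beside 0.36% of all genes tested there), and none in the opposite direction. Of the 25, 21 were among the 36 predicted loci or pseudogenes tested there and only 4 among the 53 other genes, namely *Ptprf*, *Mtus1*, *Eif3j1* and *Rpl11*. *Ptprf* was at 43.1, 81.1 and 72.4 CPM in *mdx* myoblasts against 5.33, 7.67 and 5.22 CPM in WT myoblasts (log2 fold change 3.43, edgeR adjusted p = 0.017). Same-numbered myoblast and myotube libraries may share a donor, since the Y-linked values were low in WT library 3 of both states, so the states are not known to be independent.

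In AMuSCs 42 of 84 genes tested were called, 37 in the same direction and 5 in the opposite one (50%, beside 23.7% of all genes tested). In FiMuSCs 24 of 87 were called, 17 in the same direction and 7 in the opposite one (27.6%, beside 9.67%). *Col1a1* and *Col1a2* had log2 fold changes of 4.56 and 2.29 in AMuSCs, both called, and *Col1a2* one of 3.00 in FiMuSCs. In myoblasts their log2 fold changes were 5.07 and 6.01 and did not pass (edgeR adjusted p = 0.22 and 0.26). *Lgals3* was called in the opposite direction in both sorted states, with log2 fold changes of 2.78 in FiMuSCs and 0.72 in AMuSCs. There were 7 genes called in all 4 states, of which *Mtus1* had an established symbol and the other 6 were predicted loci or pseudogenes. *Mtus1* had log2 fold changes of 4.58 in myoblasts, 1.37 in AMuSCs and -1.05 in FiMuSCs, so its direction was opposite in the freshly isolated cells. The transcript *3110056K07Rik* was higher in *mdx* in every state, by 2.76 in myotubes, 3.16 in myoblasts, 1.69 in AMuSCs and 1.49 in FiMuSCs on the log2 scale, with 35.6, 37.1 and 38.4 CPM in *mdx* myotubes against 5.72, 5.16 and 5.5 CPM in WT myotubes.

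The calls were spread over the chromosomes with some close neighbours. Chromosome 14 had 9 calls among 579 genes tested (1.55%), chromosome 18 had 5 of 395 (1.27%), chromosome 8 had 10 of 860 (1.16%) and chromosome 4 had 11 of 975 (1.13%), beside 0.591% of all genes, and the X chromosome had *Dmd* alone among 530. On chromosome 14 the predicted locus *Gm43305*, at 15.2, 14.0 and 14.3 CPM in *mdx* against 103, 113 and 98.3 CPM in WT (log2 fold change -2.85, edgeR adjusted p = 6.52e-05), started 321676 bases from *Psmb5*. *Mir686*, whose annotation lies within *Psmb5*, was lower as well (-1.25), and reads of the host gene and of this locus cannot be told apart. *Myh6*, which was higher, started 325244 bases from *Mir686*. On chromosome 10 *Usp44*, a deubiquitinase of the mitotic checkpoint at 1.71, 2.09 and 2.03 CPM in *mdx* against 0.0458, 0.0815 and 0.101 CPM in WT, started 367165 bases from *Ndufa12*. On chromosome 4 *Hyi*, which was higher (2.38) as was *Ptprf*, started 151777 bases from it. *Creb3*, which was lower, started 503379 bases from *Unc13b*, which was higher. Whether variants linked to these loci differ between the strains was not tested.

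Finally, the difference between the genotypes in myotubes was tested against that in myoblasts on the 12 libraries of both states. Of 18585 genes, 5 had a more positive difference in myotubes (0.0269%) and 6 a more negative one (0.0323%). No gene was called with the replicate number as a block, nor without *mdx* myotube library 3, WT myotube library 1 or 2, WT myoblast library 3 or *mdx* myoblast library 2. *Lgals3* was at 172, 198 and 145 CPM in *mdx* myotubes against 581, 493 and 398 CPM in WT myotubes, and at 144, 158 and 167 CPM in *mdx* myoblasts against 110, 141 and 97.9 CPM in WT myoblasts on the common scale of this fit. It lay under WT in the *mdx* myotubes and above WT in the *mdx* myoblasts (difference of log2 fold changes -1.94, SE 0.239, edgeR adjusted p = 0.035). *Fbn1* was at 48.0, 41.4 and 51.6 CPM in *mdx* myotubes against 20.4, 27.7 and 23.5 CPM in WT myotubes, and at 93.5, 113 and 86.6 CPM in *mdx* myoblasts against 127, 115 and 122 CPM in WT myoblasts (1.29, SE 0.184, edgeR adjusted p = 0.0445). *Dmd* differed between the states by -2.93 on the log2 scale without passing (edgeR adjusted p = 0.32).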

How the data were processed

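Poly(A) RNA-seq libraries had been made from 20 ng of RNA with a directional kit. The deposited tables give each transcript 2 values made by the authors, an expected count (the estimated reads of that transcript) and a TPM. Salmon 0.13.1, GRCm38 and DESeq2 are listed in the notes on processing, and strand settings are not given in the sources used here. Expected counts were summed per gene and rounded, and symbols and coordinates were taken from GENCODE M21. After filterByExpr and TMM, the 6 myotube libraries were compared in edgeR 4.0.16 (robust quasi-likelihood test, two-sided, Benjamini-Hochberg, adjusted p under 0.05) in R 4.3.3, and the interaction on 12. The script was tested on simulated counts. Alternatives were DESeq2 1.42.0, its size factors, no filter, a length offset, all 24 libraries, a replicate block, each library left out, and near copies summed (BLAST 2.17.0, chosen after seeing the data).

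Named genes were *Dmd*, then the 15 largest increases and 15 largest decreases among established symbols whose mean log2 CPM reached 1, list members called and up to 4 of each list with the smallest p, and other called genes. The comparison, the 48 gene lists and the named genes were chosen with earlier results of these data known, and lists are described without a set test. List levels are mean log2 CPM with an offset of 0.5. Totals of 37337731 to 64429222 expected counts per library set the precision of low genes. A few genes are not reported here.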

Additional observations from a re-analysis of the deposited data

Results flagged for a closer look

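For 11 genes the difference between *mdx* and WT in myotubes differed from that in myoblasts, by edgeR's quasi-likelihood test of the interaction at an adjusted p under 0.05 though none was called with the replicate number as a block (values are the myotube log2 fold change minus the myoblast one, and CPM are on the scale of the 12 libraries). *Pttg1*, securin, which holds back chromatid separation, had the value -4.58 (edgeR adjusted p = 0.0355). It was at 0.426, 1.85 and 2.41 CPM in *mdx* myotubes against 15.6, 15.8 and 14.1 CPM in WT myotubes, and at 25.7, 29.1 and 37.5 CPM in *mdx* myoblasts against 11.6, 11.7 and 13.3 CPM in WT myoblasts, so the order of the genotypes was opposite in the states. In the myotube comparison alone it did not pass (log2 fold change -3.25, edgeR adjusted p = 0.0654).

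*Frmd5*, a FERM domain protein, had the value -3.88, with 3.48, 3.8 and 4.08 CPM in *mdx* myotubes against 4.17, 3.44 and 3.09 CPM in WT myotubes, and 1.36, 2.27 and 2.14 CPM in *mdx* myoblasts against 0.114, 0.0972 and 0.152 CPM in WT myoblasts. *Lgals3* had the value -1.94 and *Ephx1*, an epoxide hydrolase, -1.80, the *Ephx1* difference lying in the myoblasts (31.7, 41.0 and 30.6 CPM in *mdx* against 9.71, 10.9 and 12.6 CPM in WT). The lincRNA *Gm47486* had the value -1.20. The pseudogene *Gm9726* had a fitted value of -8.35, which is no bound, because its WT myoblast libraries were all at 0.

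Values above 0 were those of *Rcl1* (0.86), *Creb3l2* (0.99), *Lrrn2* (1.04), *Phldb2* (1.07) and *Fbn1* (1.29). *Rcl1*, *Creb3l2* and *Phldb2* had *mdx* above WT in every myotube library and under WT in every myoblast library. *Phldb2* was at 108, 120 and 125 CPM in *mdx* myotubes against 80.4, 87.0 and 75.0 CPM in WT myotubes, and at 202, 184 and 177 CPM in *mdx* myoblasts against 301, 262 and 250 CPM in WT myoblasts. For *Lrrn2* the myotube libraries overlapped and the difference lay in the myoblasts (9.48, 8.93 and 8.27 CPM in *mdx* against 16.6, 17.9 and 18.9 CPM in WT).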

How the results depend on the processing

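The number of calls depended on the fit. The 60 higher and 35 lower genes became 384 and 302 in DESeq2, 110 and 86 without a filter, 38 and 16 under a transcript length offset, 172 and 78 when 24 libraries were fitted, 28 and 22 with near copies summed, and 15 and 7 at an adjusted p under 0.01. DESeq2's size factors in edgeR left both counts as they were, and a fit without robust shrinkage gave 62 and 37. Leaving out 1 library gave 10 to 117 higher and 4 to 118 lower genes. Genes in lists that were called numbered 10, 101 in DESeq2 and 1 to 23 with a library left out. *Utrn*, not called, ranged over -0.17 to 0.17 with a library left out, the lowest without *mdx* replicate 1, and *Rpl11* to 0.00016 with near copies summed.

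With the replicate number as a block 8 genes were higher and 7 lower, 13 of the 95 among them, and *Utrn* had the value -0.0026. Deviations of same-numbered libraries correlated at -0.056, -0.079 and -0.056, so the numbers did not pair *mdx* with WT myotubes. Across states the Y-linked values of WT library 3 were low in both myotubes and myoblasts.

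The interaction with myoblasts called 5 genes higher and 6 lower, against 178 and 109 in DESeq2, 2 and 5 with DESeq2's size factors, 1 and 0 with a length offset, 0 and 0 with the replicate block, and 0 to 9 and 0 to 8 with a library left out, so its calls were at the edge of the threshold.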
